A study of Homo sapiens with 2 samples.

Results

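A set of 10 genes that report or carry signals of transforming growth factor beta (TGF-beta) and of bone morphogenetic proteins (BMPs) were read on the bead arrays of SW48 cells given acetyl-11-keto-β-boswellic acid (AKBA) or no AKBA. The genes were PMEPA1, SMAD6, SMAD7, SKIL, ID1, ID2, ID3, TGFBR1, TGFBR2 and BMP4, and the annotation gave them 20 of 48803 probes, each of which is reported separately below. They are 10 of 18852 named genes. The genes were chosen by their roles in the pathway and with earlier signals and differences of these 2 arrays in view, so their values are given as a description and were not tested.

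SW48 is an established human colorectal cancer cell line, and AKBA is a pentacyclic acid from the resin of Boswellia trees. Cells of the treated group were grown for 6 days with the compound at 20 µM, and the control is also given as day 6. The control is given as 0.1% dimethyl sulfoxide in one label and as without treatment in another. Each group was 1 array, which leaves every difference without a replicate, and differences between the 2 cultures cannot be told apart from effects of the compound or its vehicle. Mean signals were 425 for the control and 365 for AKBA, and 87.99% of all probes detected on both arrays had the lower signal on the AKBA array. Epithelial markers EPCAM, CDH1, KRT8, KRT18, KRT19 and CDX2 were detected on both arrays, 6 of 9 in that list, and KRT20, VIL1 and CDX1 on neither. Of 9 fibroblast markers 1 was detected, PDGFRA on the control array only. Of 4 leukocyte markers with a probe 1 was detected, CD68, while PTPRC was not, and of 4 endothelial markers 0 were.

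Ligands of the TGF-beta family bind pairs of type II and type I receptor kinases, which phosphorylate SMAD proteins. TGF-beta and activin act through SMAD2 and SMAD3, and BMPs through SMAD1, SMAD5 and SMAD9, each together with SMAD4. The activated SMADs switch on genes that dampen the pathway in turn, among them SMAD6, SMAD7, SKIL and PMEPA1, and BMP signals switch on the ID genes. In the colon, TGF-beta restrains the growth of the epithelium and BMPs promote its differentiation. SW48 is a mismatch repair-deficient line, and in such cancers the coding repeat of TGFBR2 is often altered. The arrays measure transcript levels and give no information on that repeat or on the phosphorylation of SMADs.

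Detection and differences of these genes are set beside those of all probes. In a bulk sample, fewer cells with a transcript and less of it per cell cannot be told apart. Detection was called where the detection p, the share of negative control beads that were as bright, was under 0.01. At that limit 8 of the 10 genes had a detected probe, and SKIL and TGFBR1 had none. Of the 20 probes, 11 were detected on both arrays, 1 on the AKBA array only and 8 on neither. The 11 probes detected on both arrays belong to SMAD6, SMAD7, ID1, ID2, ID3, TGFBR2 and BMP4. Of all named probes detected on both arrays, 94.47% lay within 1.5-fold after normalization to a common distribution of signals. Of the 11 response gene probes, 10 did, which is close to that share and is not read as a trait of these genes. The exception was 1 of the 2 probes of ID1, and the remaining probe past that fold was the PMEPA1 probe seen on the AKBA array only. The median log2 difference of the 11 probes, AKBA minus control, was 0.02, and that of all 11226 probes detected on both arrays was 0.01.

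**Figure D1:**
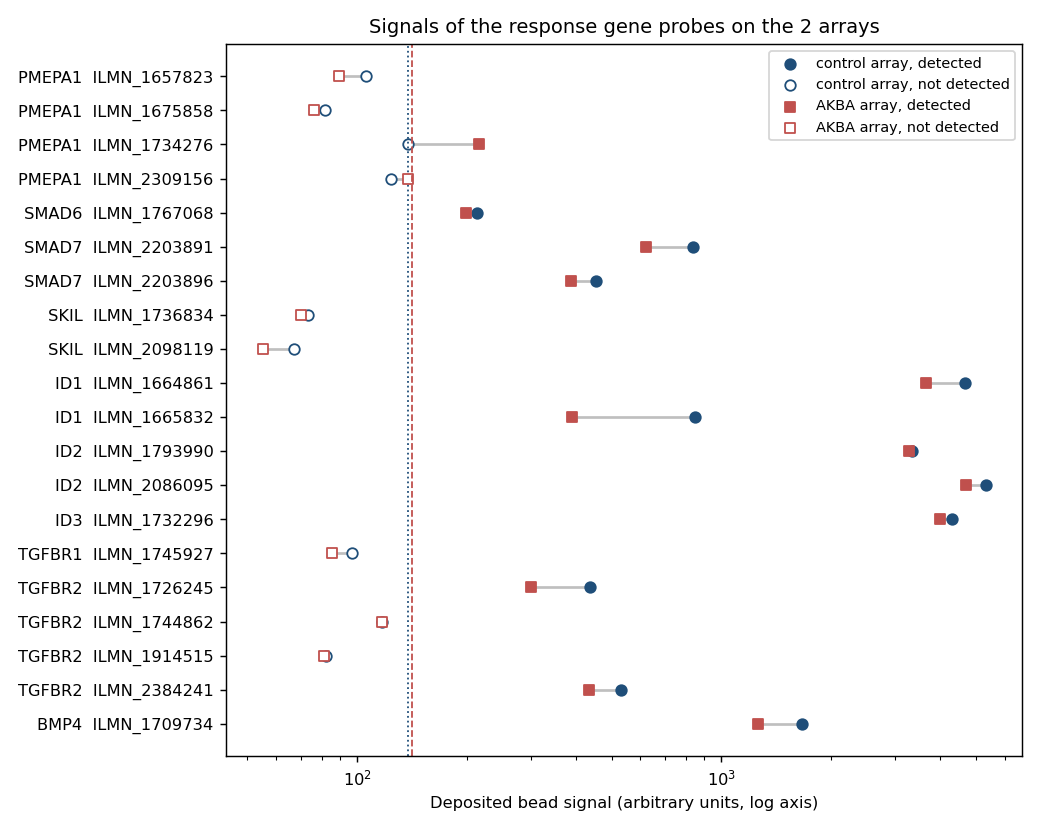
Deposited bead signal (arbitrary units, log axis) of the 20 probes on the control array (circles) and the AKBA array (squares). Filled symbols were detected and open symbols were not. The dotted and dashed lines are the lowest detected signals, 138 (control) and 141 (AKBA). The 11 probes detected on both arrays were all dimmer on the AKBA array, as were 87.99% of all probes detected on both. The PMEPA1 probe ILMN_1734276 was brighter on the AKBA array.

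Counted by gene, with each gene represented by its probe of highest mean signal, 1 of the 8 detected genes was higher with AKBA by 2-fold or more, PMEPA1. Among all 8639 detected genes, 0.405% were higher by that much. No gene of the 8 was lower by 2-fold, against 0.347% of all detected genes. At 1.5-fold the counts were again 1 higher and 0 lower, where 2.91% and 4.36% of all detected genes were. Counted by probe, 1 of 12 was higher and 1 lower by 1.5-fold or more, against 3.49% and 4.57% of all 12492 detected probes. The list was chosen with these differences known, so nothing is read from the shares. PMEPA1 passed the detection limit only through the array on which it was bright. Its place among the detected genes is therefore not independent of its difference and adds no support to it.

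PMEPA1 is a membrane protein that TGF-beta induces and that holds back the pathway by binding SMAD2 and SMAD3 and recruiting ubiquitin ligases of the NEDD4 family. Its probe ILMN_1734276 gave a signal of 137.7 in the control and 216.7 with AKBA. Its detection p was 0.0105 in the control, just outside the limit, and 0.00264 with AKBA. The lowest signal detected on the control array was 138.3, so the control value gives a bound only. With the control set at that lowest detected signal, the normalized signal was 2.5-fold higher with AKBA, a log2 difference of 1.32. That value is a lower bound within this normalization only. The size varied with the background correction and the scaling. The log2 difference as measured was 1.33, and it was 1.02 with an offset of 50 in the correction and 0.80 without a correction. It was 1.06 with the arrays scaled to equal medians, which put the median of all detected genes at -0.32. With the authors' processed values it was 1.45.

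The other 3 probes of PMEPA1 were detected on neither array. ILMN_2309156, which the annotation pairs with the same transcript record as ILMN_1734276, had signals of 123.8 and 138.0 with a detection p of 0.0132 and 0.0105. ILMN_1657823 and ILMN_1675858 are paired with other transcript records of PMEPA1. Their signals were 106.0 and 81.7 in the control and 89.3 and 76.3 with AKBA, the lower value for each. Since these 3 probes were below the limit on both arrays, no fold is given for them, and they do not show whether the transcripts they read differ. Of the 20 probes, 3 had a higher deposited signal on the AKBA array, ILMN_1734276 and ILMN_2309156 of PMEPA1 and ILMN_1744862 of TGFBR2, whose signals were 117.18 and 117.25. The latter 2 were detected on neither array.

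The promoter table of RefSeq (GRCh38.p14) holds windows of 300 bases, 250 before a start site and 50 from it on, and it gave 25 windows for the 10 genes. They were searched on both strands for letters that SMAD proteins are known to bind. These were CAGACA, which holds the SMAD box, a palindrome of the GC-rich type that BMP-activated SMADs bind, written GGCGCC, and an inverted repeat of the SMAD box, written GTCTAGAC. No matches of different motifs overlapped in these windows. PMEPA1 had 4 windows, and 2 of them held a motif. These are shown because PMEPA1 was the response gene past 2-fold. They lie at chr20:57710528-57710827 and chr20:57711423-57711722, both on the minus strand, with the motif in capitals. No value on the arrays ties either window to a probe.

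PMEPA1 (first window): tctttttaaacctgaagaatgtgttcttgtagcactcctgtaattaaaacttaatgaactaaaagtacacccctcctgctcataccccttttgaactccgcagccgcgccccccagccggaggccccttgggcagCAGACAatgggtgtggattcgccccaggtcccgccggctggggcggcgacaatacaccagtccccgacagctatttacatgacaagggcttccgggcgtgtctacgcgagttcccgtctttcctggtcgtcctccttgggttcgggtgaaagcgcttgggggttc

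PMEPA1 (second window): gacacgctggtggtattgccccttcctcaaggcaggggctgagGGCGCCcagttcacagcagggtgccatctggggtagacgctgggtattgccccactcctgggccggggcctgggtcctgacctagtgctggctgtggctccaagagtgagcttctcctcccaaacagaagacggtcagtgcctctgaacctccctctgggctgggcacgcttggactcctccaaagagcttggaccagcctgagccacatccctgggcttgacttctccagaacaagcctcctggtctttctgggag

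CAGACA was present in 16.9% of all 35116 windows and in 4 of the 25 windows of the response genes, and GGCGCC in 19.2% and in 4 of 25. The windows of 1 gene can overlap, so they are not independent. A match describes letters and is no evidence of binding.

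SMAD6 and SMAD7 are the inhibitory SMADs. SMAD7 blocks both TGF-beta and BMP receptors, and SMAD6 acts mainly on the BMP side. SMAD6 was read by 1 probe, with a signal of 214.0 in the control, 199.5 with AKBA and a log2 difference of 0.21 after normalization. SMAD7 had 2 probes. ILMN_2203891 had signals of 838 and 621 and a log2 difference of -0.12, and ILMN_2203896 had 454 and 388 and a difference of 0.09. Both deposited signals of SMAD7 were lower on the AKBA array. After normalization the probes stood on opposite sides of 0, 0.21 apart, beside a median range of 0.21 between probes of 1 gene over the 1677 genes that had 2 or more probes detected on each array.

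SMAD6 was the response gene whose window held GTCTAGAC, which occurred in 71 of all 35116 windows, or 0.202%. The window lies at chr15:66701986-66702285 on the plus strand, and the motif is in capitals.

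SMAD6: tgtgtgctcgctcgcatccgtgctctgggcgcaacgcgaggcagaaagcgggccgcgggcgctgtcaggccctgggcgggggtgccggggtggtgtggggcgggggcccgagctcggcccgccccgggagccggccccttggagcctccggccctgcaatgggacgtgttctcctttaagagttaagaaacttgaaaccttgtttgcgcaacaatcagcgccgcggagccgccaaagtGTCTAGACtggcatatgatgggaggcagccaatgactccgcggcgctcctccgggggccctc

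The 3 windows of SMAD7 held none of the motifs, which says only that these letters are not there. SKIL encodes SnoN, a corepressor of SMAD complexes that TGF-beta first removes and then induces. Its 2 probes read 73.2 and 67.3 in the control and 70.1 and 55.1 with AKBA, with a detection p between 0.415 and 0.983. SKIL was thus not detectable on either array, and no difference is given.

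ID1, ID2 and ID3 encode helix-loop-helix proteins that lack a DNA-binding region and hold their partners, the E proteins, away from DNA. They are direct targets of BMP-activated SMADs, and all 5 of their probes were detected on both arrays with a detection p of 0. ID2 had signals of 3339 and 3277 by ILMN_1793990, control first, and of 5346 and 4712 by ILMN_2086095. The log2 differences after normalization were 0.29 and 0.09. ID3 had signals of 4301 and 3996 and a log2 difference of 0.21. For ID2 and ID3 the deposited signals were thus lower on the AKBA array and the normalized values higher, and none of the 3 probes reached 1.5-fold. With the arrays scaled to equal medians instead, which put the median of all detected genes at -0.32, the differences of ID2 were 0.01 and -0.15 and that of ID3 was -0.07.

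The 2 probes of ID1 disagreed. ILMN_1664861 gave 4672 in the control and 3659 with AKBA, and its log2 difference was -0.02. ILMN_1665832 gave 847 in the control and 390 with AKBA, and its log2 difference was -0.90, with the control 1.86-fold higher. Both were well above the detection limit on both arrays, and the annotation pairs both with the same transcript record. Of all detected probes, 0.817% had a difference as low as the latter. The probes lay 0.88 apart, and 32 of the 1677 genes with such probes, 1.91%, had a range at least as large. ID1 as a gene therefore has no single value here, and which transcripts each probe reads was not tested.

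**Figure D2:**
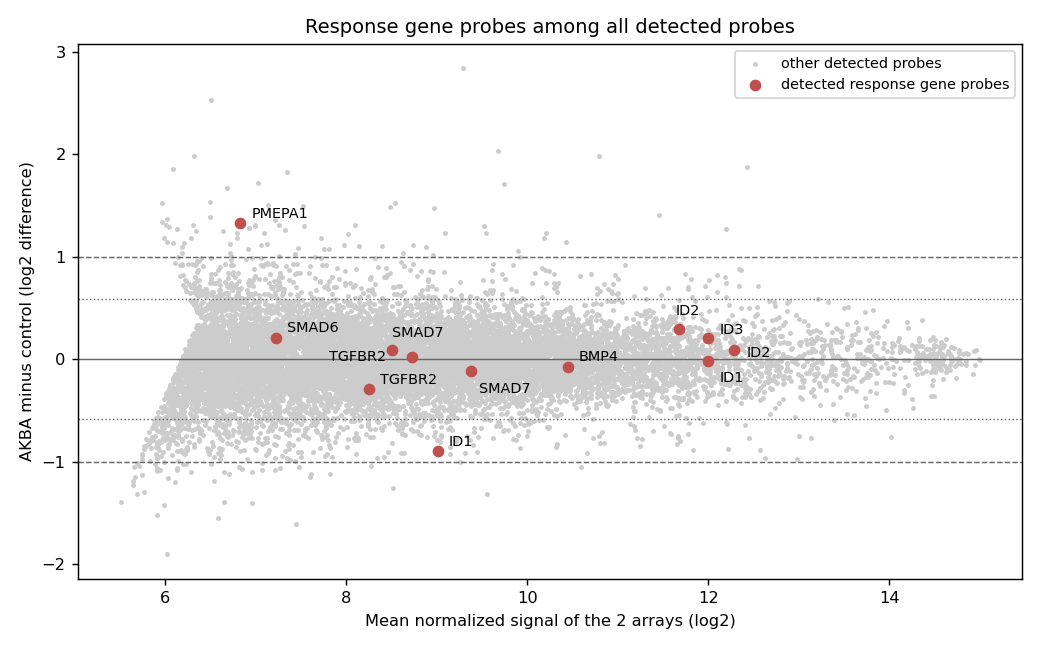
Log2 difference of AKBA minus control against the mean normalized log2 signal of the 2 arrays, for all 12492 probes detected on at least 1 array (grey) and the 12 of the response genes (red). Dashed lines mark 2-fold and dotted lines 1.5-fold. PMEPA1 at 1.33 and 1 probe of ID1 at -0.90 stand outside the dotted lines, and the other probes lie between them.

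The single window of ID1 held none of the 3 motifs, nor did those of ID2 and ID3. The region of ID1 known to respond to BMP lies further upstream than this window. The ID1 window is shown beside those above as the start site of the gene whose probes disagreed, at chr20:31605039-31605338 on the plus strand, with no capitals because no motif was found.

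ID1: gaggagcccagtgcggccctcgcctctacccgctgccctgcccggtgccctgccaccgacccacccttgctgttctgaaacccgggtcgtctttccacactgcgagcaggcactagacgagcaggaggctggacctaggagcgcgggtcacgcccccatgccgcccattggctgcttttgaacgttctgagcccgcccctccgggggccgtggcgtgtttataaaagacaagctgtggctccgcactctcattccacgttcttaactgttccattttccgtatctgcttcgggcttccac

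Of the receptors, TGFBR2, the type II receptor that binds TGF-beta first, had 4 probes, and 2 were detected on both arrays. ILMN_2384241 had signals of 532 and 433 and a log2 difference of 0.02, and ILMN_1726245 had 437 and 300 and a difference of -0.30. The pair lay 0.31 apart. ILMN_1744862 and ILMN_1914515 were detected on neither array, the former with a detection p of 0.0171 and 0.0132. TGFBR1, the type I receptor kinase that TGFBR2 activates, was read by 1 probe with signals of 97.0 and 85.6. Its detection p was 0.0553 and 0.0949, so it was not detectable. BMP4, a BMP ligand, had signals of 1669 and 1261 and a log2 difference of -0.07.

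The spread of the difference was wider among dim probes. Across all probes detected on both arrays, the standard deviation of the log2 difference was 0.35 among the dimmest, 0.30 among the middle and 0.26 among the brightest probes, in classes of equal size. Of the 11 response gene probes detected on both arrays, 1 was in the dimmest class, 5 in the middle and 5 in the brightest. The ID1 probe at -0.90 was in the middle class, where 5.02% of all probes passed 1.5-fold in either direction. The other 10 lay within 0.30 of 0.

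**Figure D3:**
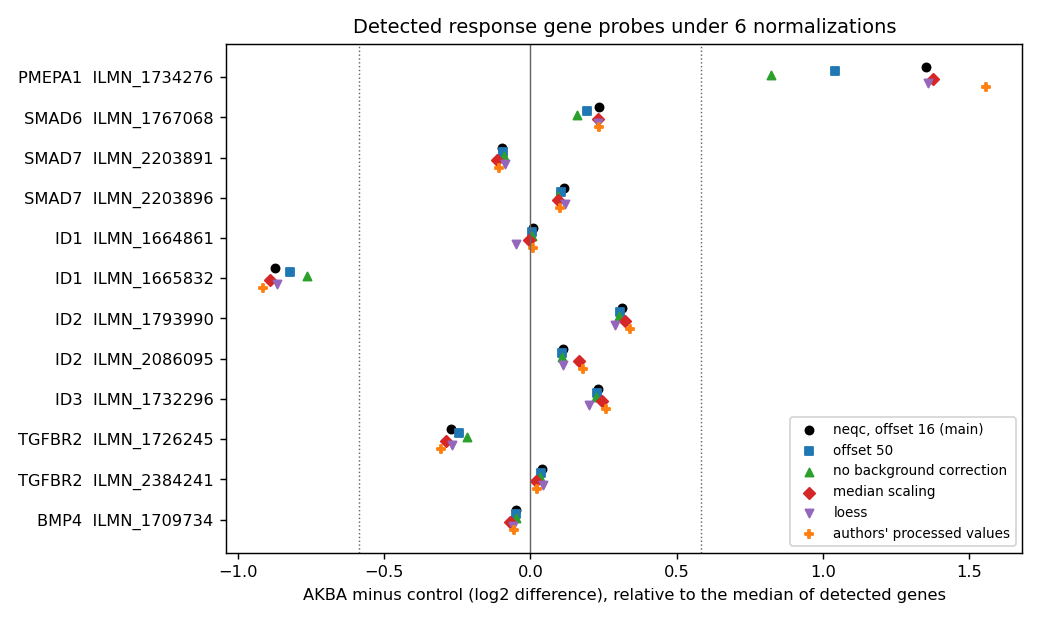
Log2 difference of AKBA minus control for the 12 detected probes under 6 normalizations, each relative to the median of detected genes under that normalization. Dotted lines mark 1.5-fold. PMEPA1 and the ID1 probe ILMN_1665832 lie outside the lines under each of the 6, and the other 10 probes inside.

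The rest of the pathway was described through lists of 136 further genes, of which 128 had a named probe and 55 were detected. By 1.5-fold or more, 1 of the 55 was higher with AKBA and 2 were lower, beside the 2.91% and 4.36% of all detected genes given above. The median log2 difference of the 55 was -0.11, against -0.02 for all detected genes, and 32 stood below the latter. Of the 55, 47 were detected on both arrays. The rest passed the detection limit through the control array only, and each of them was lower with AKBA. The median and the count of 32 are therefore not independent of the filter, and nothing is read from them. Some genes are on more than one list.

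Among TGF-beta and activin ligands and activators, 5 of 18 genes with a probe were detected and 0 passed 1.5-fold, with a median of -0.05. LTBP3, which binds latent TGF-beta, stood at 0.00, the activin-related ligand GDF11 at -0.05 and the integrin subunit ITGAV, part of receptors that release active TGF-beta, at -0.25. The 1 BMP ligand detected beside BMP4, of 11 others with a probe, was BMP7. It had signals of 2334 and 1637 and a log2 difference of -0.19.

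Of 13 other receptors and coreceptors with a probe, 7 were detected, with a median of -0.29. That median was -0.09 over genes detected on both arrays and 0.00 where a gene seen on 1 array was set to its bound. BMPR2, the type II receptor of BMPs, was lower with AKBA by 1.5-fold or more. Its probe ILMN_2070896 had a control signal of 599, an AKBA signal of 335 and a log2 difference of -0.61. The second probe of BMPR2, ILMN_1789095, had 429 and 271 and a difference of -0.44, in the same direction. The type I receptors ACVR1, which serves BMPs, and ACVR1B, which serves activin, stood at 0.34 and 0.11.

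Of 17 other SMADs and nuclear cofactors, 11 were detected and 0 passed 1.5-fold, with a median of -0.25, which was -0.08 over genes detected on both arrays, and -0.08 as well where bounds were used. The common partner SMAD4 stood at -0.08, the corepressor TGIF1 at 0.00 and -0.02 by its 2 probes and TRIM33, a ubiquitin ligase that binds activated SMADs, at -0.25 and -0.16. Secreted and membrane antagonists had 6 of 18 genes detected, 0 past 1.5-fold and a median of -0.12. The pseudoreceptor BAMBI, itself a target of the pathway, had signals of 25187 and 21429 and a difference of -0.13, or 0.03 with the authors' processed values. The BMP antagonist NBL1 stood at -0.12 and -0.10 by its 2 probes, and TWSG1, which modulates BMP binding, at -0.21 and 0.10.

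In the group that turns over receptors and SMADs, 8 of 10 genes were detected, with a median of -0.13. NEDD4L, a ubiquitin ligase of activated SMAD2 and SMAD3, was lower with AKBA, with signals of 368 and 211 and a log2 difference of -0.67. It was read by 1 detected probe. The ligase STUB1 stood at 0.27 and 0.14 by its 2 probes, the ligase WWP1 at -0.14 and the deubiquitinase USP9X at -0.12.

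Other TGF-beta target genes had 10 of 22 genes detected and a median of 0.16, which was 0.01 without the detection limit. BHLHE40, a transcriptional repressor that TGF-beta, hypoxia and other stresses induce, was the 1 gene past 1.5-fold. It read 925 in the control and 1670 with AKBA, and its log2 difference was 1.23, past 2-fold as well. TSC22D1, a leucine zipper factor, stood at 0.17, 0.55 and -0.06 by its 3 detected probes, and CDKN1A, the cell cycle inhibitor p21, at -0.37. KLF10, an early TGF-beta target chosen after its values were seen, stood at 0.14 by one probe and at 0.79 by ILMN_1659122.

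Other BMP target genes had 6 of 17 genes detected, 0 past 1.5-fold and a median of -0.09. The homeobox gene MSX1 stood at -0.11 and RUNX2, a transcription factor that BMPs induce in bone, at -0.54 with signals of 767 and 438. Of the helix-loop-helix partners of the ID proteins, 4 of 8 were detected and had a median of -0.08. The E protein TCF3 stood at -0.33, ASCL2, a factor of intestinal stem cells, at -0.14 and HES1 at -0.03.

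**Figure D4:**
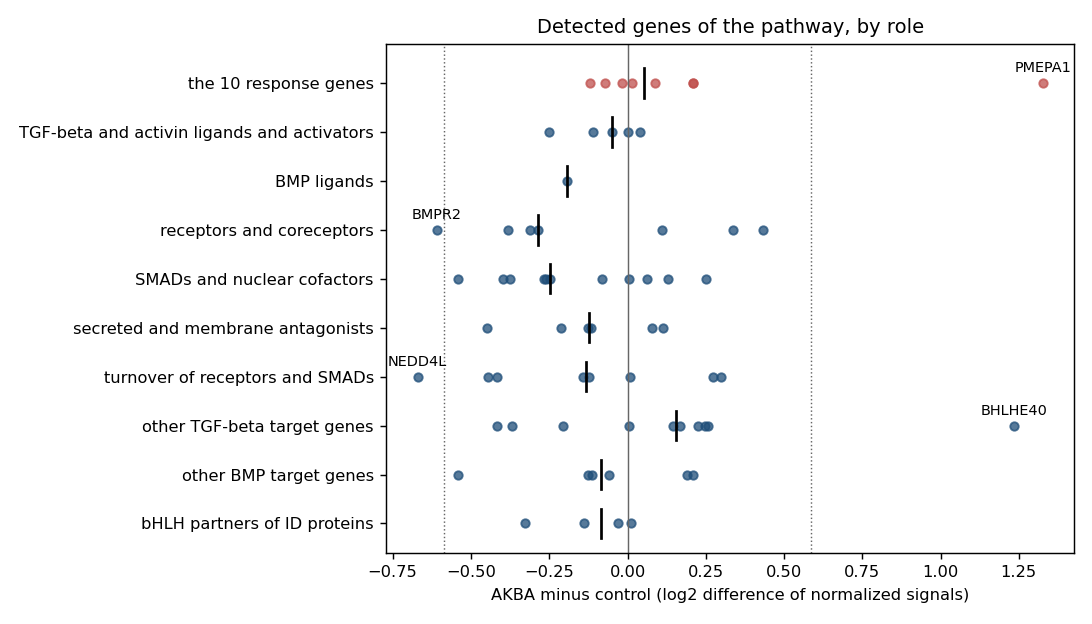
Log2 difference of AKBA minus control for the detected genes of the 10 response genes (red) and of 9 lists of other pathway genes (blue), 1 point per gene at its probe of highest mean signal. Black bars are list medians and dotted lines mark 1.5-fold. PMEPA1 and BHLHE40 lie above the upper line and BMPR2 and NEDD4L below the lower one.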

How the data were processed

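Total RNA of SW48 cells was labelled as complementary RNA for Illumina arrays, as the protocols in the labels state. The intensity values deposited for each probe are mean bead signals without background subtraction or scaling, judged from the values. The deposited detection p-value compares a probe with the negative control beads of its own array. The authors' second set of intensity values followed those signals linearly, with slopes of 1.00 and 1.20, and served as an alternative with a floor of 16. What software made them is not stated in the labels or headers.

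Signals were normalized with neqc of limma 3.58.1 in R 4.3.3 (normexp with an offset of 16, quantiles, log2), and tabulated with Python 3.11.15, numpy 2.4.6 and pandas 2.3.3. Probes were named from the platform's annotation through Entrez identifiers, and 28059 probes matched RefSeq. A gene was represented by its probe with the highest mean normalized signal. The limits were a detection p under 0.01 and differences of 2-fold and 1.5-fold. Alternatives changed the background correction, the scaling, the detection limit and the summary over the probes of a gene. With 1 array per group nothing was tested, and the number of arrays limits the precision.

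The genes, lists and limits were chosen with earlier results of these data known. All response gene probes were named, and of each list the genes past 1.5-fold and the 3 of highest signal. KLF10 was named outside that rule, after its values were seen. The normalization was tested on simulated data, whose noise was revised after its output was seen. Changes were planted only in probes well above the detection limit. The simulation therefore does not cover dim probes such as that of PMEPA1.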

Additional observations from a re-analysis of the deposited data

How the results depend on the processing

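The counts of response genes past each fold were recomputed under 11 alternatives and 2 more that were added after seeing the data. The count of 1 gene higher by 2-fold was 0 without a background correction, at a detection p under 0.001 and with probes detected on both arrays, and the count at 1.5-fold was 0 under the latter 2 settings. The 1 probe higher by 1.5-fold was likewise 0 under those 2 settings, and became 2 at a detection p under 0.05 and without a filter on detection, as a second probe of PMEPA1 entered. The probes lower by 1.5-fold were 2 with median scaling, which shifted all detected genes to a median of -0.32, and 1 when counted relative to that shift. The other counts did not move. For single probes, the median of all genes under each setting was first brought to that of the main setting. PMEPA1 then ranged from 0.80 to 1.53 and the ID1 probe ILMN_1665832 from -0.94 to -0.79. No paired analysis was possible because each group is 1 array. Probes near the lowest detected signals of 138 and 141, as those of PMEPA1, limit what can be said of size.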
